A study of Mus musculus with 8 samples.

Results

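Regions of the mouse genome with a peak of ZBTB2 in embryonic stem cells (ESCs) grown with 2i, and with none in serum ESCs or in neural progenitor cells (NPCs), are described here as 2i-only regions. They were selected on the positions of the deposited peaks: peaks of the 3 lists that overlapped by at least 1 bp were merged into 6680 regions, and 2763 of these held 2i peaks alone. Of those, 77 were left out because they lay in a dense block on chromosome 10 (5852507 to 6002609), 4 because they lay on contigs of unknown position and 1 because it lay on the mitochondrial chromosome. This left 2681 regions, or 40.1% of all merged regions. Each of the 2681 consisted of 1 2i peak, so its width and score are those of that peak. Outside the same exclusions the 2i list held 5842 peaks, of which 45.9% (95% Clopper-Pearson interval 44.6 to 47.2) were 2i-only, 3158 lay in regions with a serum peak and 3 shared a region with an NPC peak alone.

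ZBTB2 was mapped by chromatin immunoprecipitation and sequencing with an antibody against GFP. All cells used here carried a ZBTB2-GFP fusion on a bacterial artificial chromosome (BAC), in the ESC line IB10 of the 129/Ola strain. The 3 groups were tagged ESCs in Serum/LIF, tagged ESCs in Serum/LIF + 2i, and tagged NPCs derived from these ESCs and kept in NPC medium. Of the 8 samples in the series 5 are not analysed here: the inputs, and GFP immunoprecipitations of untagged ESCs in serum and of NPCs from the untagged line R1. No untagged sample is labelled for ESCs with 2i. Whether the tagged line is a single clone, and how many copies of the BAC it carries, is not given in the sources used here.

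ZBTB2 belongs to the BTB and zinc finger family, in which the zinc fingers contact DNA and the BTB domain joins proteins to each other and to partners. The title of the series presents it as a reader of unmethylated DNA. 2i stands for a pair of kinase inhibitors, against MEK and GSK3, that hold ESCs in the naive state of pluripotency. ESCs in 2i are known for lower DNA methylation across the genome than ESCs in serum. Both ESC groups here had serum in the medium, and DNA methylation was not part of the data used.

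Each group was represented by 1 library and 1 peak list, so nothing here tests the difference between media over replicates, and p-values are left out. There were 5934 peaks in the 2i list, 4072 in the serum list and 320 in the NPC list. The number of reads behind them is unknown. A longer list leaves more peaks without a partner, and depth and medium cannot be told apart. With the 2i list shortened to the length of the serum list by score, 1352 regions were 2i-only, and in its higher-scored 50% there were 667. The score of a peak was read as the −log10 of the p or q value of the authors' peak caller. Since membership was decided by these same lists, the widths, scores and distances below are a description, and intervals cover counting error only. Positions are in mm9, and no mm9 genome or annotation was used, so regions are named by position and no sequence is printed.

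The 2i-only regions were narrow. Their widths ran from 156 to 1187 bp with a median of 236 bp (order-statistic interval 231 to 240, quartiles 186 and 319). The 2i peaks of regions with a serum peak had a median of 491 bp (476 to 506, quartiles 322 and 733.75). At most 200 bp were covered by 897 of the 2i-only regions, or 33.5%, against 6.78% of the shared 2i peaks. Wide regions were rare: 154 (5.74%) measured over 500 to 1000 bp and 4 (0.149%) more than that, against 38.5% and 10.3% of shared peaks. The narrowest peak of the whole 2i list measured 156 bp, and 142 2i-only regions (5.30%) lay within 1 bp of this width, against 21 shared peaks (0.665%). In sum the 2i-only regions covered 736.1 kb of the 2524.5 kb under 2i peaks, or 29.2% of the bases from 45.9% of the peaks. The 826 regions with serum peaks only, under the same exclusions, had a median width of 247 bp (241 to 255), close to that of the 2i-only regions, with the narrowest serum peak at 180 bp.

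**Figure D1:**
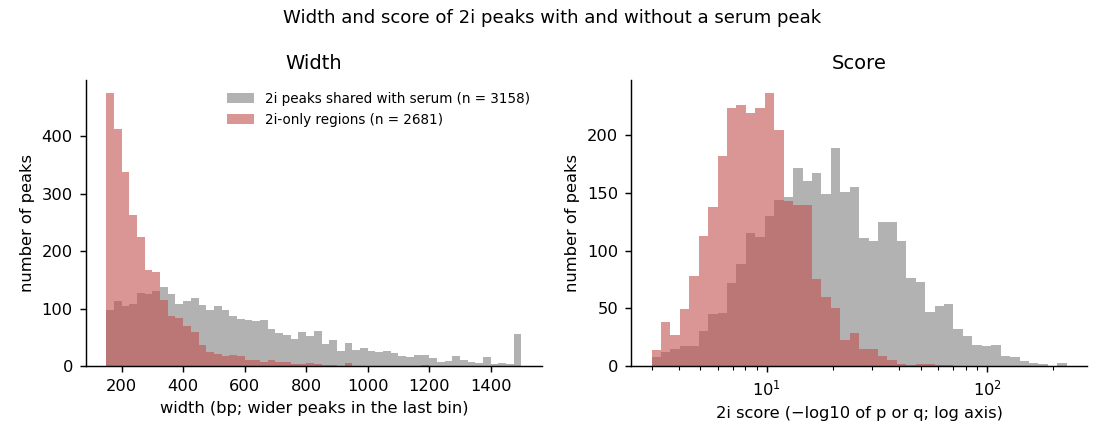
Histograms of width in bp (left, bins of equal width, peaks above the axis range in the last bin) and of 2i score on a log axis (right) for 2681 2i-only regions and 3158 2i peaks shared with serum. The 2i-only regions pile up at the narrow end (median 236 against 491 bp) and at low scores (median 9.04 against 18.8).

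Scores were low as well, with a median of 9.04 (8.74 to 9.32, quartiles 6.67 and 12.2) and a range from 3.02, just above the cutoff of 3 on this scale, to 66.2. Shared 2i peaks had a median of 18.8 (18.1 to 19.4). A score of at most 5 was found for 212 2i-only regions (7.91%), one above 5 and up to 10 for 1369 (51.1%), and one above 30 for 27 (1.01%). Among shared peaks 856, or 27.1%, scored above 30. Of the 500 highest 2i peaks 7 were 2i-only, and of the 1000 highest 41. Scores were tied in many places: the 2681 regions had 1055 distinct scores, and 27 of them stood at 7.32. Width and score went together less closely among 2i-only regions (Spearman rho 0.40 across 2681 regions) than among shared 2i peaks (0.68 across 3158). Both are correlations across peaks of 1 library and have no test. They also cover unlike ranges, since the score quartiles of shared peaks were 11.5 and 32.1. A correlation over a narrower range can be lower for that reason alone, and the 2 were not compared at like range.

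Widths were also compared at like score. In each of 10 score deciles of the 2i list the 2i-only regions had the lower median width. In the lowest decile (scores 3.02 to 5.97) the medians were 204.5 bp (198 to 210) for 454 2i-only regions and 259.5 bp (233 to 281) for 144 shared peaks. In the sixth (12.2 to 15.0) they were 271 bp (253 to 288) and 394 bp (367 to 427), and in the ninth (25 to 38.1) 416 bp (381 to 442) and 659 bp (624 to 680). The medians were 55 bp apart in the lowest decile, 243 bp in the ninth and 475 bp in the highest. The rule is not blind to width, since a wider peak has more bases that an overlap can meet.

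**Figure D2:**
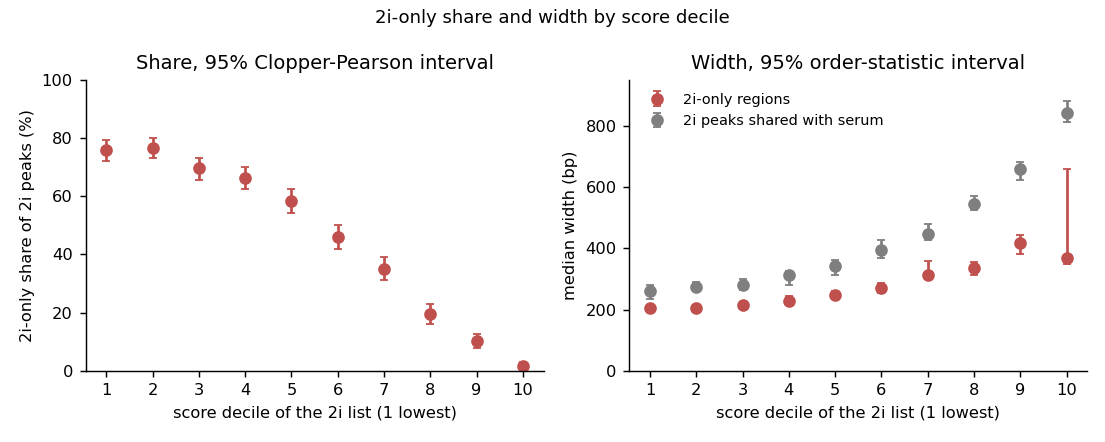
Left, the share of 2i peaks that were 2i-only in each score decile of the 2i list (points) with 95% Clopper-Pearson intervals (bars). Right, median width in bp of 2i-only regions and of 2i peaks shared with serum in the same deciles, with 95% order-statistic intervals. The share falls from 75.8% in the lowest decile to 1.72% in the highest, and the 2i-only medians lie below the shared ones in every decile.

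Conversely, at like width the 2i-only regions had the lower scores. Among 2i peaks of over 200 to 250 bp the median score was 8.51 (8.09 to 8.91) for 606 2i-only regions and 10.1 (9.36 to 10.98) for 213 shared peaks. Among those of over 500 to 700 bp it was 13.5 (11.8 to 15.0) for 113 and 22.4 (21.4 to 23.2) for 675. The 2i-only share fell with width from 80.7% (78.2 to 82.9) at up to 200 bp to 4.94% (3.63 to 6.55) above 700 bp. Narrow 2i peaks were thus mostly 2i-only and wide ones mostly shared.

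Shared 2i peaks of the same strength show what serum score usually went with it. For the 678 shared 2i peaks whose score lay between the quartiles of the 2i-only regions (6.67 to 12.2), the serum peaks of the region had a median score of 12.3 (11.6 to 12.8). Only 25 of them, or 3.69% (2.40 to 5.40), had a serum score under 5, near the serum cutoff. These are partners that passed that cutoff, so they do not give the serum signal at the 2i-only regions.

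The strongest 2i-only region lay on chromosome 2 at 30548870 to 30549224. It scored 66.2, rank 176 of the 2i list, was 355 bp wide and lay 14.2 kb from a serum peak that scored 53.2. The next, on chromosome 11 at 12367174 to 12367658, scored 63.4 and was 485 bp wide, and its nearest serum peak was 1005 kb away. It belonged to a run of 3 2i-only regions, the closest of the others at 1947 bp. On chromosome 18, at 24625359 to 24625715, a region of 357 bp scored 56.6 and lay 241.9 kb from serum. The region on chromosome 17 at 25023620 to 25023969 (350 bp) scored 55.3, and the serum peak 7.91 kb away was a weak one listed in serum alone (8.4).

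Further down, the region on chromosome 1 at 71699194 to 71699963 was the widest of the 10 highest, at 770 bp, with a score of 52.0 and a serum gap of 558.6 kb. The chromosome 16 region at 28936572 to 28936916 (345 bp) scored 48.9, and the one on chromosome 4 at 106926422 to 106926768 (347 bp) scored 47.3. A second region on chromosome 16, at 16866309 to 16866685, was 377 bp wide, scored 39.8 and lay 3.96 kb from a strong serum peak (136.4). The last of the 10 highest were a region of 659 bp on chromosome 9 (114276984 to 114277642, score 39.2) and one of 598 bp on chromosome 2 (75541809 to 75542406, score 38.6). The nearest serum gaps of the 10 ran from 3.96 to 1005 kb, so none of them lay within 1 kb of a serum peak. The highest score of a 2i-only region within 1 kb of serum was 33.1.

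Of these 10 regions, 6 had widths between 345 and 377 bp. Shared peaks of the highest score decile were mostly wider. In the highest score decile 2i-only regions had a median of 367 bp (347 to 659, n = 10) and shared peaks one of 842 bp (812 to 882, n = 573). With a limit of 400 bp, chosen after these widths were seen, 6 of 19 narrow peaks of that decile were 2i-only, against 4 of 564 wider ones. The 2i-only peaks counted are the same 10 regions whose widths set the limit, so the counts restate those widths. Strength was not matched either, since scores reached 66.2 for 2i-only regions and 220.8 for shared peaks.

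The widest 2i-only regions were not the strongest. The region on chromosome 9 at 96387460 to 96388646 was 1187 bp wide and scored 9.74, near the median, with a serum peak 8.23 kb away. On chromosome 2, the region at 58998767 to 58999949 was 1183 bp wide and scored 15.8, and the one at 29922049 to 29923118 was 1070 bp wide and scored 28.5. The latter lay 111 bp from a serum peak of 36.9. A region of 1041 bp on chromosome 1 (64579203 to 64580243, score 23.8) and one of 988 bp on chromosome 9 (94437999 to 94438986, score 21.5) completed the 5 widest.

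Distance to the nearest serum peak, as the gap between edges, had a median of 92.1 kb (85.4 to 99.6, quartiles 26.0 and 262.8). A serum peak lay within 1 kb of 260 2i-only regions, or 9.70% (8.60 to 10.9), within 10 kb of 442, or 16.5% (15.1 to 17.9), and within 100 kb of 1396, or 52.1% (50.2 to 54.0). More than 1 Mb separated 169 regions, or 6.30% (5.41 to 7.29), from any serum peak. Against the higher-scored 50% of the serum list alone the median gap was 204.2 kb and the share within 10 kb was 8.73%. The nearest serum peak was at the lower coordinate for 1360 regions (50.7%), so the sides were even.

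Shared 2i peaks were measured in the same way. Their gap to the nearest serum peak of another region had a median of 77.7 kb (73.3 to 81.7), with 10.4% (9.34 to 11.5) within 1 kb, 17.1% (15.8 to 18.5) within 10 kb, 57.0% (55.2 to 58.7) within 100 kb and 4.46% (3.77 to 5.24) beyond 1 Mb. The shares within 1 and 10 kb of the 2 classes lie inside each other's intervals. For the median, the share within 100 kb and the share beyond 1 Mb the intervals do not overlap, with the 2i-only regions farther from serum in each. This is a description and no test, since the serum list also decided the classes. The intervals treat peaks as independent, while neighbouring peaks can share a nearest serum peak, so they are too narrow. Serum-only regions lay nearer to 2i peaks, with a median of 49.6 kb (43.1 to 56.1) and 17.1% (14.6 to 19.8) within 1 kb. The 2i list they were measured against is the longer one.

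**Figure D3:**
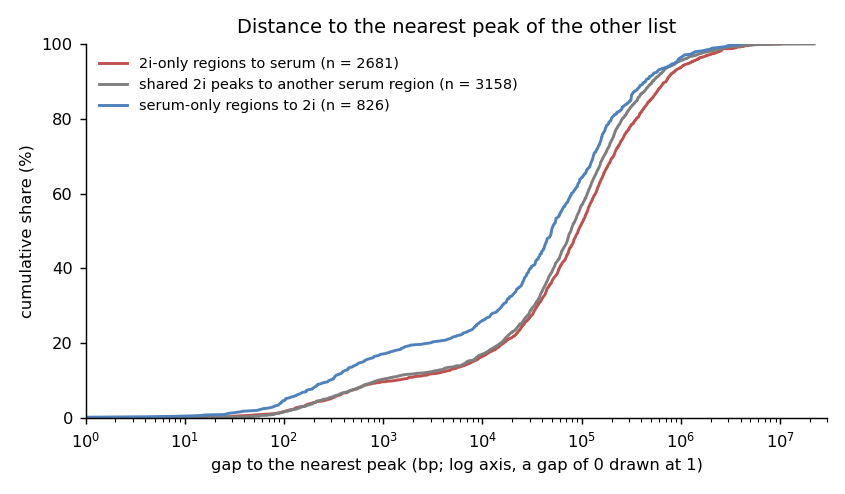
Cumulative share of regions (%) against the gap in bp to the nearest peak, on a log axis, for 2i-only regions to serum peaks, shared 2i peaks to serum peaks of another region, and serum-only regions to 2i peaks. The first 2 curves run together up to 10 kb (16.5% and 17.1%), and all 3 flatten between 1 and 10 kb.

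Gaps were most densely packed below 1 kb. Per kb of gap there were 460 2i-only regions at up to 100 bp from serum, 640 at over 100 to 200 bp, 316.7 at over 200 to 500 bp, 110 at over 500 bp to 1 kb and 34 at over 1 to 2 kb. At over 5 to 10 kb 18 remained and at over 10 to 100 kb 10.6. Beyond 200 bp the density thus fell steeply up to 2 kb and slowly after it. For the 3158 shared 2i peaks the densities to another serum region in the same bins up to 2 kb were 520, 760, 366.7, 180 and 45. The profile is therefore not particular to 2i-only regions. Median width and score of the 2i-only regions varied little with the gap, while the highest scores were lower within 1 kb. There the 90th percentile of scores was 14.6 and the highest score 33.1. In the farther bins listed next these values were 16.2 to 16.8 and 55.3 to 66.2. Median widths were 236 bp for the regions within 1 kb of serum, 231 bp at over 1 to 10 kb, 228 bp at over 10 to 100 kb, 243 bp at over 100 kb to 1 Mb and 227 bp beyond, and the median scores were 8.63, 8.54, 9.0, 9.27 and 9.32.

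Of the 260 2i-only regions within 1 kb of serum, 208, or 80.0% (74.6 to 84.7), stood beside a serum peak that itself overlapped another 2i peak. Of all serum peaks outside the exclusions 79.6% did so, which is the same share within the interval. These 208 regions had a median score of 8.63 and a median gap of 290 bp, and the 2i peak of the shared region beside them a median score of 19.2 (16.8 to 20.7). In 170 of the 208 the 2i-only region was the weaker of the 2i peaks. Over all 2i-only regions and all shared 2i peaks the median scores were 9.04 and 18.8. A like difference was thus present in the whole list and is not particular to these neighbours. The other 52 of the 260 regions stood beside a serum-only peak. There the 2i peak and the serum peak had median scores of 8.82 and 8.71, median widths of 231.5 and 250 bp and a median gap of 167 bp (103 to 314). Over all 2i-only and all serum-only regions the median scores were 9.04 and 9.69, and the median widths 236 and 247 bp. The likeness is thus not particular to these 52. Scores of 2 libraries of unknown depth do not compare strength directly.

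At the edge of the rule stood the 5 2i-only regions with the smallest gaps to serum and the 5 shared regions with the smallest overlaps. On chromosome 6 a 2i peak at 47827751 to 47828003 (score 11.3) touched a serum peak (7.77) with a gap of 0 bp. Regions at 154613627 to 154613791 on chromosome 1 (5.14) and 49017475 to 49017634 on chromosome 11 (5.59) lay 4 bp from serum peaks of 8.37 and 147.3. A gap of 7 bp was found on chromosome 11 (69446749 to 69446961, score 9.76) and one of 12 bp on chromosome 5 (67818407 to 67818696, score 5.29). Just outside the rule, a shared region on chromosome 1 at 120355662 to 120356027 had an overlap of 17 bp, with scores of 7.25 in 2i and 9.16 in serum. The other 4 of the 5 smallest overlaps measured 22, 26, 33 and 33 bp, with 2i scores from 6.38 to 15.3 and serum scores from 7.03 to 12.4. Of the 2i-only regions, those scoring 5.14, 5.29 and 5.59 lay below all of these 2i scores, and the serum neighbours of 35.3 and 147.3 lay above all of these serum scores.

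The farthest 2i-only regions were all on chromosome X, between 139115946 and 149204654. The region at 140753936 to 140754159 (score 12.1) had its nearest serum peak 10.2 Mb away. The other 4 of the 5 farthest, starting at 139115946, 147481415, 148578750 and 149204300, lay 6.77 to 8.52 Mb from serum and scored 5.42 to 15.0. Of the 35 2i-only regions on X, 9 (25.7%, 12.5 to 43.3) lay beyond 1 Mb, while on the autosomes the share ran from 2.03% on chromosome 17 to 13.0% on chromosome 3. The serum list held 37 peaks on X, fewer than on any autosome.

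NPC peaks were mostly far away. The median gap to the nearest of the 320 NPC peaks was 2197 kb (2037 to 2413), and 19 2i-only regions (0.709%) had one within 1 kb. The NPC list is short, and the rule left out regions that met an NPC peak. This gap was not taken for shared 2i peaks, so it does not set the 2i-only regions apart. To the nearest other 2i peak of any kind the median gap was 38.6 kb (34.3 to 43.9), and that neighbour was itself 2i-only for 1405 regions, or 52.4% (50.5 to 54.3). Of the 2i list outside the exclusions 45.9% of peaks were 2i-only. Peaks of the excluded chromosome 10 block could count as neighbours here, and no such share was taken for shared 2i peaks.

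Some 2i-only regions came in groups. With a largest gap of 10 kb between neighbours, 550 of them, or 20.5% (19 to 22.1), formed chains: 211 pairs, 30 triplets, 3 chains of 4, 1 of 5, 2 of 6 and 1 of 9. The other 2131 had no 2i-only neighbour within 10 kb. The share was 9.92% with a limit of 1 kb and 27.0% with 20 kb. In the higher-scored 50% of the 2i list, which held 667 2i-only regions, it was 8.10% at 10 kb. Shared 2i peaks, chained at the same gap among themselves, did so in 18.7% (17.3 to 20.1), and serum-only regions, from a smaller set, in 10.5% (8.52 to 12.8). The 3158 shared peaks lay in 3061 regions, so peaks of the same region could form a chain. Each 2i-only region is 1 peak, so the 18.7% and the 20.5% are not measured alike. Chained and single 2i-only regions had like widths (median 234 and 236 bp), scores (9.27 and 9.0) and serum gaps (86.4 and 95.1 kb). Neighbours in a chain were a median of 1156.5 bp apart (941 to 1607), and 138 of the 302 gaps, or 45.7%, were at most 1 kb. In a pair, the weaker region had a median of 0.67 (0.62 to 0.71) of the score of the stronger.

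Chains of all 2i peaks were often mixed. Of 615 chains of 2 peaks, 173 held 2i-only regions alone, 214 none and 228 both kinds. The 2i-only share of the peaks was 44.6% (43.0 to 46.1) among single peaks, 46.7% (43.8 to 49.5) in chains of 2, 54.4% (49.0 to 59.7) in chains of 3 and 61.0% (50.9 to 70.3) in the 23 chains of 4 or more. Peaks of the same chain are not independent, so these intervals are too narrow. Chains on X, chromosome 9 and chromosome 2, described below, held 9, 5 and 4 of the 64 2i-only regions in chains of 4 or more. These 3 chains were not compared with a list of regions prone to artefactual signal, and the shares without them were not taken. Of the 23 chains of 4 or more, 5 consisted of 2i-only regions alone.

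The chain on chromosome 4 at 55477010 to 55493459 was one of these 5. It held 6 2i-only regions within 16.5 kb and no peak of another kind. The first region (55477010 to 55477588) was 579 bp wide and scored 14.2, and 9170 bp followed without a peak. Next came a pair 67 bp apart, at 55486759 to 55486946 (188 bp, score 7.03) and 55487014 to 55487280 (267 bp, 15.2). The strongest region, at 55488175 to 55488698, was 524 bp wide, scored 35.9 and ranked 670 in the 2i list.

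The widest region of this chain, at 55490129 to 55490844, measured 716 bp and scored 23.2, and the last, at 55493131 to 55493459, measured 329 bp and scored 10.98. The nearest serum peak was 34.5 kb beyond the last region and scored 9.30, against a 2i peak of 14.2 in the same region. Within 100 kb of the chain there were 3 serum and 0 NPC peaks, and 8 2i peaks with the 6 of the chain included. With a median score of 14.7 the chain stood above the 2i-only median of 9.04, and it had the highest summed score (106.6) of the 7 chains of 4 or more.

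**Figure D4:**
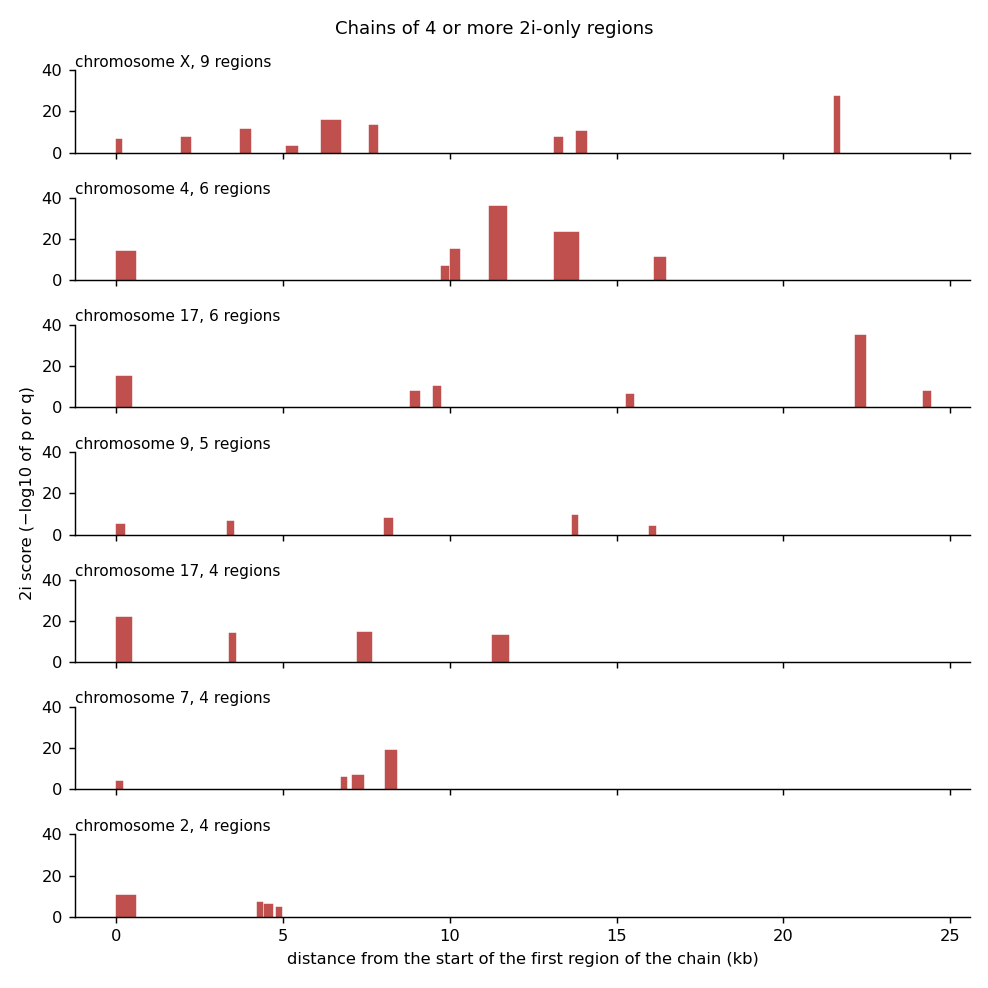
The 7 chains of 4 or more 2i-only regions. Each bar is a region, drawn to scale by its width at its distance in kb from the start of the chain, and its height is the 2i score. The chromosome 4 chain has 2 regions above 20 (35.9 and 23.2), while the 5 regions of the chromosome 9 chain all score below 10 (4.25 to 9.66).

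The longest chain, at the distal end of chromosome X (166421757 to 166443427), held 9 2i-only regions in 21.7 kb. It was not free of other peaks: a region in all 3 lists lay inside it, at scores of 20.3 in 2i, 9.62 in serum and 18.9 in NPCs, as did a serum-only peak of 6.62. The 9 scores ran from 3.11 to 27.6 with a median of 10.5. The highest, at 166443271 to 166443427, was the strongest 2i-only region of chromosome X although it was only 157 bp wide, and no list had a peak beyond it. The chain was not compared with an mm9 list of regions prone to artefactual signal, and whether its peaks are such signal was not tested. With this chain left out X held 0.973% of the 2i-only regions, and with it 1.31%.

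On chromosome 17, the chain at 37110304 to 37134684 held 6 regions in 24.4 kb with no other peak between them. A single region stood out, at 37132460 to 37132730, with a score of 35.2 in 271 bp. The first, at 37110304 to 37110749, scored 15.4, and the other 4 scored 6.41 to 10.5. At lower coordinates of the same chromosome, 4 regions at 31945017 to 31956776 were spaced evenly, with gaps of 2928 to 3641 bp, and had scores of 21.7, 14.2, 14.6 and 13.1. The nearest serum peak to them was 35.6 kb away.

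The remaining chains had lower medians. On chromosome 9, 5 regions at 3022054 to 3038202 had scores of 4.25 to 9.66 and widths of 159 to 265 bp. They were the first peaks of any list on that chromosome, and the nearest serum peak was 4.80 Mb away. On chromosome 2, 4 regions lay within 4.95 kb at 98502482 to 98507427, with scores of 4.61 to 10.7 and the nearest serum peak 3.52 Mb away. On chromosome 7, 4 regions at 140306690 to 140315072 had scores of 3.97 to 19.1 and ended 276 bp from a serum peak of 7.89. Like the chain at the end of X, the chains on chromosomes 9 and 2 were not compared with a list of regions prone to artefactual signal, and whether they are such signal was not tested. With all 7 chains of 4 or more left out, 19.4% of the remaining 2i-only regions were in chains.

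On a wider scale, some stretches between neighbouring serum peaks held many 2i-only regions. The following 3 were chosen as those with the most, after the counts were seen. On chromosome 6, 15 regions lay between 71443897 and 72848616, or 10.7 per Mb, against 1.05 per Mb over the span of all chromosomes used. Each stretch was measured from its first to its last 2i-only region, which makes its density as high as it can be. Inside a stretch without serum peaks, every 2i peak that met no NPC peak is 2i-only by the rule. The 1.05 per Mb counts no shared 2i peaks, so the contrast is partly fixed by the rule. Scores of the 15 regions on chromosome 6 ran from 4.57 to 15.5 with a median of 8.74, and 6 of the 15 were part of chains. On chromosome 4, 15 regions between 144784712 and 147113091 had scores of 3.71 to 26.4 with a median of 11.5. They were mostly single, with a median gap of 158.9 kb, and the serum peaks on either side were 4661 kb apart. On chromosome 12, 10 regions between 86962067 and 88225167 included a triplet in which the region at 87845335 to 87845909 scored 36.7.

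Over chromosomes the 2i-only share of 2i peaks ran from 34.9% on chromosome 19 (61 of 175, 27.8 to 42.4) to 55.0% on chromosome 6 (171 of 311, 49.3 to 60.6). Of the 20 intervals, those of chromosomes 1 (51.0%) and 6 lay above the 45.9% of the list and those of chromosomes 11 (39.0%) and 19 below it. In the higher-scored 50% of the list the shares were 28.4% on chromosome 6 and 20% on chromosome 19, against 22.6% over all chromosomes. On X 35 of 66 2i peaks were 2i-only, or 53.0% (40.3 to 65.4), which does not set it apart at this number of peaks. Median widths of the 2i-only regions lay between 212 and 255 bp on every chromosome, and median scores between 8.05 and 9.65. The highest score on chromosome 19 was 18.0, and on the other chromosomes it lay between 27.6 and 66.2.

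**Figure D5:**
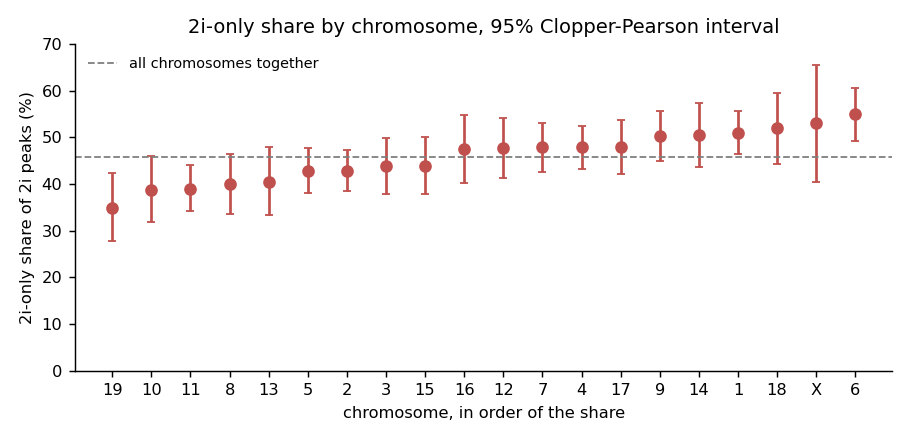
Share of 2i peaks that were 2i-only (%) on each of 20 chromosomes, in order, with 95% Clopper-Pearson intervals. The dashed line is the share over all of them, 45.9%, and the intervals of chromosomes 19 and 11 lie below it and those of 1 and 6 above.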

How the data were processed

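Peak lists of ZBTB2-GFP immunoprecipitations from serum ESCs, 2i ESCs and NPCs were used, 1 library each. Per the submitters' processing notes, positions are in mm9 and MACS2 2.0 and SAMtools were used. The sources used here do not give the aligner, the control library or the meaning of "merged" in the list names. The score deposited by the authors was read as the −log10 of a p or q value, because its minimum lies just above the −log10 of the cutoff in each list's name (0.001 for ESCs, 0.01 for NPCs). Read depth is unknown.

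Peaks were merged at an overlap of 1 bp or more. Gaps run from edge to edge, and starts are 1-based. Chains join neighbours at most 10 kb apart. Score deciles are those of the 2i list outside the exclusions. Shares carry 95% Clopper-Pearson intervals and medians order-statistic intervals, both of which treat peaks as independent. No filter for repeated sequence was applied, and spans of chromosomes run from the first to the last listed peak. Python 3.11.15, numpy 2.4.6, pandas 2.3.3, scipy 1.17.1 and matplotlib 3.10.9 were used. bedtools 2.31.1 gave the same 2763 2i peaks without a serum or NPC peak. On simulated data of 5934 peaks the planted regions, gaps and chains were recovered with a difference of 0.

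The members and the rules for naming regions were chosen with earlier results of these data known. Regions were named as the 10 highest-scored, the 5 widest, the 5 with the smallest gap to serum and the 5 regions with the smallest overlap, the 5 farthest from serum, the highest on X and the chains of 4 or more (5 in full by rule). Gene annotation and sequence content were not analysed, since the reference tables at hand are of another build (GRCm38.p6). Alternatives changed the merging distance, the overlap, the part of each list, the exclusions and the chain gap.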

Additional observations from a re-analysis of the deposited data

How the results depend on the processing

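Of 28 values under alternative settings, 15 kept within counting error, or for counts within a factor of 1.5, and 13 did not. The number of 2i-only regions ran from 2289 (peaks up to 1 kb apart joined) to 3314 (reciprocal overlap of 50%), and was 2684 with the NPC list ignored. With the 2i list reduced it was smaller by construction: 1352 at the length of the serum list and 667 in the higher-scored 50%. In that 50% the median width was 316 bp, the share in chains 8.10%, and the 2i-only shares of chromosomes 6 and 19 were 28.4% and 20%, against 22.6% over all chromosomes. Against the higher-scored 50% of serum peaks the median gap was 204.2 kb and the share within 10 kb 8.73%, as fewer targets leave longer gaps. The share near serum was 9.70% at 1 kb and 52.1% at 100 kb. The share in chains was 9.92%, 17.0% and 27.0% at gaps of 1, 5 and 20 kb. Without the 7 chains of 4 or more, an alternative added after seeing the data, it was 19.4%. Members had the lower median width in all 4 score quartiles as well. Sequence content was not run, because no mm9 genome was used. With depth unknown, its limits have no number here.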

Other observations

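The 2i-only regions left out by the rule were also narrow and low in score. The 77 of the chromosome 10 block had a median width of 260 bp (223 to 301) and a median score of 8.15 (6.6 to 9.28), with a highest score of 27.9. The 4 on contigs were 163 to 250 bp wide and scored 7.06 to 9.95, and the 1 on the mitochondrial chromosome was 256 bp wide and scored 6.07.

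An NPC peak kept 3 further regions without a serum peak out of the class. They lay on chromosome 12 at 114336216 to 114336997 (scores of 24.9 in 2i and 9.43 in NPCs), on chromosome 8 at 47237150 to 47237780 (15.3 and 8.68) and on chromosome 14 at 70919837 to 70920163 (5.32 and 5.50).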
